A study of Mus musculus with 56 samples.

Results

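The mouse Serpina3 genes form a cluster of near copies on chromosome 12, and 9 of them, Serpina3b, Serpina3c, Serpina3f, Serpina3g, Serpina3h, Serpina3i, Serpina3k, Serpina3m and Serpina3n, were followed here among 25939 genes measured in visceral adipose tissue (VAT). They were chosen by name, with no threshold on a measured value, although the choice was made with earlier results of these data known. The tissue came from female C57BL/6J mice, 9 weeks old and fed normal chow under a cycle of 12 h light and 12 h dark. After 7 days of acclimation, food was given for 7 days either in the daytime (daytime-restricted feeding, DRF) or in the night (nighttime-restricted feeding, NRF, the control regimen). VAT was taken from 4 mice per regimen at each of 7 zeitgeber times (ZT, hours after lights on), from ZT0 to ZT24 every 4 h, which gave 56 libraries of polyadenylated RNA in 14 groups. All mice were on restricted feeding, and no group with free access to food was analysed here. Each library holds the RNA of a different mouse. ZT24 falls at the same time of day as ZT0, and both are counted among the 7 time points.

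Serpins are protease inhibitors that trap their target by a large change of shape after the protease cleaves an exposed loop. The human gene SERPINA3 encodes alpha-1-antichymotrypsin, an acute-phase protein of plasma, and the mouse genome carries an expanded family in its place whose members differ mainly in that loop. Serpina3n encodes a secreted inhibitor of serine proteases including granzyme B, and it is a known target of glucocorticoid and STAT3 signalling. Serpina3k encodes a kallikrein-binding protein made mainly by liver, and Serpina3g encodes an intracellular inhibitor of cysteine cathepsins that interferon and NF-kB signals induce in immune cells.

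On GRCm38, the members lie on chromosome 12 from Serpina3b (104127996 to 104139545) through Serpina3c (104146382 to 104153870), Serpina3f (104214544 to 104221129), Serpina3g (104236245 to 104241939), Serpina3h (104247905 to 104253669), Serpina3i (104263122 to 104269372), Serpina3k (104338486 to 104346144) and Serpina3m (104338486 to 104394257) to Serpina3n (104406729 to 104414329). The table holds 3 more genes of the cluster, Serpina3a, Serpina3d-ps and Serpina3j, which are not members. Serpina3c lies on the minus strand and the other members on the plus strand. The annotation lists Serpina3h as a transcribed unprocessed pseudogene and the others as protein coding. The table of promoters held 6 of the 9 members, Serpina3b, Serpina3c, Serpina3f, Serpina3g, Serpina3i and Serpina3n. The 250 bases before the start are shown for Serpina3c and Serpina3n, whose promoters are the closest pair among different members while their levels went opposite ways, and for Serpina3b, which went the way of Serpina3c (RefSeq, GRCm38.p6, each 5′ to 3′ on the strand of its gene). Capitals mark matches to the letters AGAACA, part of the glucocorticoid receptor element, to TTGCNNAA, bound by C/EBP proteins, and to TATAAA, the letters of the TATA box, each searched on both strands. No capitals overlap.
Serpina3c, chr12:104153873-104154122, minus strand: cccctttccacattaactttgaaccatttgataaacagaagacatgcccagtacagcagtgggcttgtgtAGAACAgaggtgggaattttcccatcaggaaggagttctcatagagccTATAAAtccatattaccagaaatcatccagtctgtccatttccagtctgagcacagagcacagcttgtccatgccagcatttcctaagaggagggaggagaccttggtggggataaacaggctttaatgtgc
Serpina3n, chr12:104406458-104406707, plus strand: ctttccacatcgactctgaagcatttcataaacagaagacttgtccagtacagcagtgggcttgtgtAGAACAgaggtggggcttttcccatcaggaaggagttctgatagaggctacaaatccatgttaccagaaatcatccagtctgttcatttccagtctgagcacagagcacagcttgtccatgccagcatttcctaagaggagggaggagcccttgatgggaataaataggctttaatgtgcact
Serpina3b, chr12:104127746-104127995, plus strand: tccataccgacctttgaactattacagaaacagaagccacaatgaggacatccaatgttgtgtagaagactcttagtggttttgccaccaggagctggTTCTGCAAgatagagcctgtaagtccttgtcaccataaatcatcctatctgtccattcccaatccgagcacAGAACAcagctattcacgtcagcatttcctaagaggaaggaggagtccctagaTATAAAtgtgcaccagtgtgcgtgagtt
Serpina3c and Serpina3n shared 229 of 247 aligned bases (92.7%), whereas Serpina3b shared 175 of 237 aligned bases (73.8%) with Serpina3c. All 3 promoters hold AGAACA, which 16.1% of the 32851 promoters of this length hold. Of these, TTGCNNAA matched in Serpina3b, and in 9.56% of all promoters. TATAAA matched in Serpina3b, 28 bases before the start, and in Serpina3c, 132 bases before the start, and 12.4% of all promoters hold it. The letters TTCNNNGAA (a STAT palindrome) matched in Serpina3g, Serpina3i and both starts of Serpina3f but in none of the 3 printed promoters, against 7.02% of all promoters. CACGTG (an E-box), TTATGTAA (a D-box) and AGGTCA (a ROR element) matched in none of the 7 member promoters and in 6.02%, 0.819% and 14.02% of all promoters. A match is a run of letters and not a measured site.

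The transcripts of these genes are alike in sequence. The longest transcripts of Serpina3k and Serpina3m were identical at 91.4% of 1647 aligned bases, those of Serpina3h and Serpina3i at 91.5% of 1205, and those of Serpina3c and Serpina3n at 81.6% of 2029. Over windows of 150 bases, the length of a read, 5 of 1908 windows of Serpina3k (0.262%) occurred exactly in Serpina3m, and no window of the 7 members other than these was found in another Serpina3 gene. Over 50 bases, the shared part rose to 13.7% of the windows of Serpina3k and 19.1% of those of Serpina3m, 257 of them common to both genes. For the other members it ranged from 2.92% in Serpina3b to 24.4% in Serpina3h. In addition, 1 of the 2 annotated transcripts of Serpina3m starts with the first exon of Serpina3k (chr12:104338486-104338545, 60 bases), so reads on it belong to either gene. The library kit did not mark strand, and how reads matching several copies were counted is not given in the sources used here. Values of Serpina3k, Serpina3m and Serpina3g (15.4% of windows shared), and of the low members Serpina3f, Serpina3h and Serpina3i, are uncertain to that extent.

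The libraries held 29.8 to 40.1 M recovered reads (median 34.1 M). Adipocyte genes were high in all groups, with the 8 listed markers summing to 9748 to 33735 CPM (counts per M reads of the library size held in the deposited values). NRF ZT24 replicate 4 stood apart by liver genes. It was above all libraries other than itself and the pair named next in 8 of 9 measured liver markers, with Alb at 1385 CPM against 12.9 to 70.0 CPM and Ttr at 77.5 CPM against 0 to 0.369 CPM. DRF ZT0 replicate 4 and DRF ZT8 replicate 1 stood apart by genes of uterine epithelium, all 5 of which were above those other 53 libraries, with Wfdc2 at 292 and 84.7 CPM against at most 10.03 CPM. Adipocyte markers were low in the same pair. DRF ZT8 replicate 1 was below the other 53 libraries in 7 of the 8 and DRF ZT0 replicate 4 in 5, with Adipoq, which encodes adiponectin, at 1025 and 1544 CPM against 1695 CPM or more, and the lowest sum above belonged to DRF ZT8 replicate 1.

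Per length of exon, Serpina3n and Serpina3c carried nearly all of the family's RNA. Levels per length are CPM per kb. Serpina3n lay at a median of 111 CPM per kb under NRF (68.2 to 173) and 163 under DRF (45.1 to 255), and Serpina3c at 74.8 under NRF (55.3 to 121) and 57.3 under DRF (23.8 to 88.6). They held medians of 53.6% and 38.4% of the summed level of the 9 members under NRF, and 69.7% and 26.4% under DRF. The summed level itself had a median of 218 CPM per kb under NRF and 231 under DRF. The next members were Serpina3k (6.49 under NRF and 1.59 under DRF), Serpina3b (4.95 and 1.42), Serpina3m (2.08 and 4.58) and Serpina3g (1.02 and 0.841). Serpina3f, Serpina3h and Serpina3i lay at 0.0841, 0.0465 and 0.0356 CPM per kb under NRF. The order was not the same under both regimens. Serpina3k exceeded Serpina3m in 28 of 28 NRF libraries and 2 of 28 DRF libraries, and Serpina3m exceeded Serpina3b in 1 of 28 NRF libraries and 26 of 28 DRF libraries. Serpina3n exceeded Serpina3c in 25 of 28 NRF and 28 of 28 DRF libraries. Neighbours among the low members overlapped, with Serpina3f above Serpina3h in 18 of 28 NRF and 21 of 28 DRF libraries and Serpina3h above Serpina3i in 18 of 28 NRF and 16 of 28 DRF libraries.

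**Figure D1:**
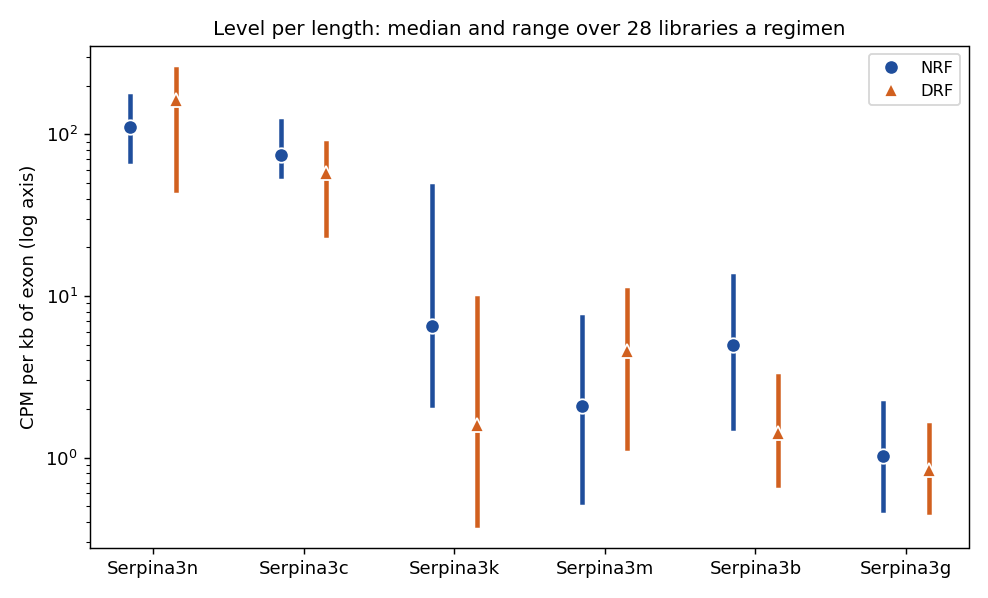
Level per length of the 6 members with a median of at least 50 reads (CPM per kb of exon, log axis), with symbols at the median and bars from the lowest to the highest of 28 libraries, NRF in blue and DRF in orange. The medians of Serpina3n and Serpina3c lie far above those of the rest, although the NRF bar of Serpina3k reaches into their DRF bars, and the medians of Serpina3k and Serpina3m exchange places between the regimens.

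The first comparison asked whether feeding in the daytime changed the mean level over the day. Serpina3k, Serpina3b, Serpina3c and, by smaller amounts, Serpina3g, Serpina3f and Serpina3i were lower under DRF, and Serpina3m and Serpina3n were higher. By limma on log2(CPM + 1) with Benjamini-Hochberg adjustment, 8 of the 9 members passed an adjusted p of 0.05, 2 higher and 6 lower under DRF, where 21.7% of all 25938 genes tested did (11.4% higher and 10.3% lower). The count of members fell to 5 without mice numbered 1 and to 5 without those numbered 2. Over all genes tested, the count fell from 5623 to 4599 and 3870 in the same settings. The median difference was -0.12 over the members and -0.00036 over all genes tested. Of the 9 members, 6 had a mean of at least 10 reads per library, as did 66.6% of genes tested, and Serpina3f, Serpina3h and Serpina3i did not. In bulk tissue, fewer cells of a type and less RNA per cell cannot be told apart.

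**Figure D2:**
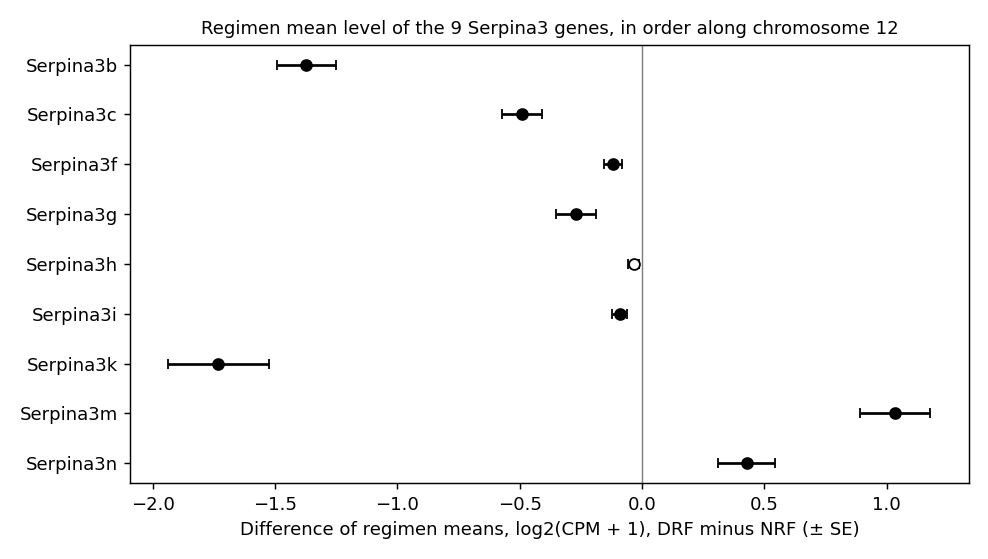
Difference of regimen means for each member on the log2(CPM + 1) scale, DRF minus NRF, as estimate and standard error from limma over 56 libraries, in order along the chromosome, with filled points for an adjusted p under 0.05. Serpina3m and Serpina3n lie right of 0, the other 7 left of it, and only the point of Serpina3h is open.

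Serpina3k moved most. It ranged from 4.35 to 98.6 CPM under NRF (median 13.4) and from 0.789 to 20.1 CPM under DRF (median 3.27), and 21 of the 28 DRF libraries were below the lowest NRF library. The difference was -1.73 on the log2(CPM + 1) scale (SE 0.20, adjusted p = 7.62e-09, limma), a 3.32-fold lower level and the lowest estimate among all genes tested in this fit of 56 libraries. The NRF range included NRF ZT24 replicate 4, the library with liver genes, where Serpina3k reached 98.6 CPM (4291 reads) against at most 31.1 CPM in the other 27 NRF libraries. Without that library the difference was -1.65 (adjusted p = 1.14e-09). The DRF minimum of 0.789 CPM was DRF ZT8 replicate 1, and without it and DRF ZT0 replicate 4 the difference was -1.68. DRF ZT20 replicate 2, at 20.1 CPM, was the highest DRF library, with the other 3 mice of its group at 3.31 to 6.53 CPM.

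Serpina3k and Serpina3m overlap in the annotation and moved in opposite directions. Serpina3m ranged from 0.909 to 12.7 CPM under NRF (median 3.58) and from 1.97 to 18.8 CPM under DRF (median 7.88), with 6 DRF libraries above the highest NRF library and 9 NRF libraries below the lowest DRF library. Its mean rose by 1.03 (SE 0.14, adjusted p = 3.15e-07, limma), a 2.05-fold change. The highest NRF library was again NRF ZT24 replicate 4, and without it the difference was 1.07. The ratio of Serpina3m to Serpina3k per length ran from 0.0706 to 0.964 under NRF (median 0.247) and from 0.756 to 6.46 under DRF (median 2.79). The ratio was below every DRF library in 25 of 28 NRF libraries and above every NRF library in 26 of 28 DRF libraries, so the 2 regimens overlapped in a few libraries.

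**Figure D3:**
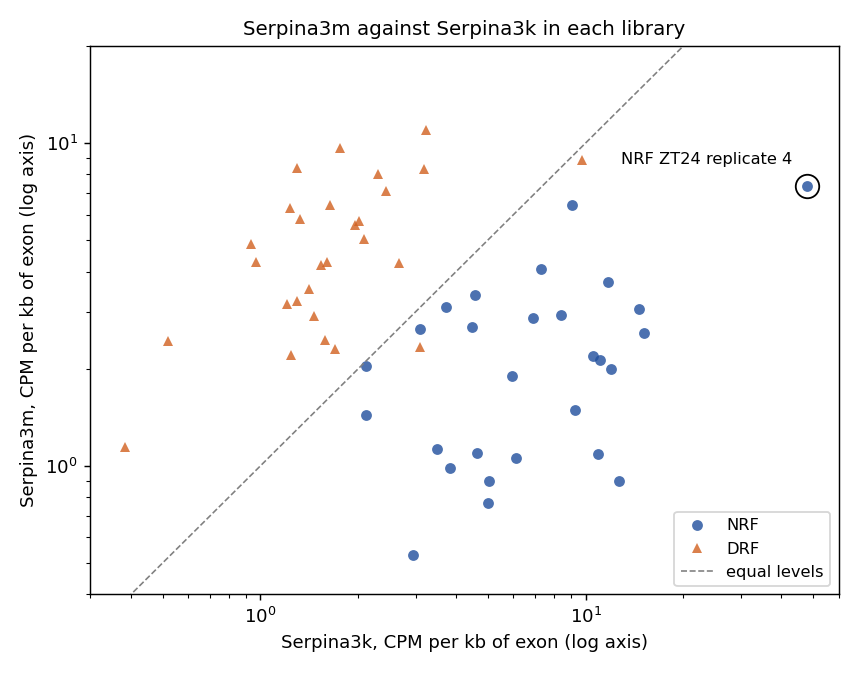
Serpina3m against Serpina3k in each of 56 libraries (CPM per kb of exon, both axes log), NRF as blue circles and DRF as orange triangles, with a dashed line at equal levels and a ring around NRF ZT24 replicate 4. All 28 NRF libraries lie below the line, and 26 of 28 DRF libraries lie above it.

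Serpina3n, the most abundant member, ranged from 141 to 357 CPM under NRF (median 229.8) and from 93.0 to 526 CPM under DRF (median 336). The groups overlapped widely, with 10 DRF libraries above the highest NRF library and 1 below the lowest. Its mean rose by 0.43 (SE 0.12, adjusted p = 0.0054, limma), or 1.35-fold. The spread was larger under DRF (SD 0.57 of log2(CPM + 1), n = 28) than under NRF (SD 0.36, n = 28), and was 0.45 under DRF without DRF ZT8 replicate 1 and DRF ZT0 replicate 4. Whether the spread differed was not tested. The DRF minimum was DRF ZT8 replicate 1, which was also the lowest DRF library in Serpina3c, Serpina3k and Serpina3m. Without it and DRF ZT0 replicate 4, the rise was 0.52 (adjusted p = 7.92e-05). Leaving out all mice numbered 2 gave 0.33, and the call was lost.

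Serpina3c, next to Serpina3n in level and with a promoter close to it in sequence, fell. It ranged from 122 to 269 CPM under NRF (median 166) and from 52.7 to 196 CPM under DRF (median 127), with 7 NRF libraries above the highest DRF library and 10 DRF libraries below the lowest NRF library. The difference was -0.49 (SE 0.08, adjusted p = 7.92e-06, limma), 1.41-fold. The lowest values, 52.7 and 75.4 CPM, belonged to DRF ZT8 replicate 1 and DRF ZT0 replicate 4, and without both the difference was -0.41 (adjusted p = 5.58e-07). The ratio of Serpina3n to Serpina3c per length had a median of 1.35 under NRF (0.777 to 2.70) and 2.62 under DRF (1.44 to 3.99).

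Serpina3b fell by 1.37 (SE 0.12, adjusted p = 1.96e-12, limma), or 2.59-fold. It ranged from 3.13 to 27.5 CPM under NRF (median 10.2) and from 1.395 to 6.65 CPM under DRF (median 2.95), and 21 of 28 NRF libraries were above every DRF library. Its estimate ranked 5 from the lowest among all genes tested. Serpina3g fell by 0.27 (SE 0.08, adjusted p = 0.012), with 0.993 to 4.56 CPM under NRF (median 2.15) and 0.975 to 3.36 CPM under DRF (median 1.77). The ranges of Serpina3g overlapped in most libraries, and the call was lost when all mice numbered 1 or all mice numbered 2 were left out.

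The 3 low members gave few reads. Serpina3f had 0 to 25 reads under NRF and 1 to 12 under DRF, and its difference was -0.12 (SE 0.04, adjusted p = 0.014, limma), a call lost without mice numbered 1 or 2 (adjusted p = 0.11 and 0.12). Serpina3i had 0 to 16 reads under NRF and 0 to 20 under DRF, was at 0 in 4 NRF and 15 DRF libraries, and differed by -0.09 (SE 0.03, adjusted p = 0.028). Without NRF ZT12 replicate 1 or without NRF ZT16 replicate 1, the adjusted p of Serpina3i rose to at most 0.053, without ZT24 to 0.069, and without mice numbered 1, 3 or 4 to 0.15, 0.21 and 0.060. Serpina3h had 0 to 8 reads under each regimen and differed by -0.03 (SE 0.02, adjusted p = 0.26). A library at 0 reads allows up to 3 reads, which is 0.063 to 0.094 CPM here, so the levels of Serpina3h and Serpina3i lay about at the limit of this depth. The counts are not of independent molecules, and that limit covers counting error only.

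The second comparison asked whether the daily pattern differed between regimens. Under NRF, 4 of the 9 members had a 24-h rhythm by the combined JTK_CYCLE and Lomb-Scargle test after Benjamini-Hochberg adjustment, where 27.3% of all genes tested did. Serpina3b (adjusted p = 0.0014), Serpina3c (0.00043), Serpina3g (6.23e-05) and Serpina3m (0.00014) passed. Serpina3n did not (0.070), although it did with JTK_CYCLE alone (0.041), with scaling by total recovered reads (0.048) and with a filter at a mean of 10 reads (0.049). The call of Serpina3b was lost without mice numbered 3 (0.065). Under DRF, 0 of the 9 members passed by this test against 16.4% of all genes tested, while 2 members had an unadjusted p under 0.05, as did 23.3% of all genes tested. Under NRF the limma F test called 5 members, where it called 33.7% of all genes tested. JTK_CYCLE alone called 2 members under DRF, Serpina3b (adjusted p = 0.041) and Serpina3k (0.033), where it called 19.4% of all genes tested, and the limma F test called 1, Serpina3m (0.030), where it called 26.7% of all genes tested. The DRF rhythm of Serpina3b (0.070) also passed with scaling by total recovered reads (0.012), with the filter at 10 reads (0.049) and without DRF ZT8 replicate 1 and DRF ZT0 replicate 4 (0.0060), and that of Serpina3k (0.086) without mice numbered 4 (0.0082). A rhythm called under NRF and not under DRF does not show a difference, which was tested in limma on the terms that let the 24-h curve differ between DRF and NRF. The test of that difference passed for Serpina3b (adjusted p = 0.00017), Serpina3g (0.0068) and Serpina3f (0.027), 3 of 9 members, where 36% of all genes tested passed. Serpina3g lost this call without mice numbered 2 (0.073), and Serpina3f lost it without those numbered 1 (0.16), 2 (0.055) or 3 (0.059) and without any of 3 single libraries at ZT20 (up to 0.055). The difference did not pass for Serpina3c (0.082) or Serpina3m (0.22), but without mice numbered 1 it passed for both (0.0058 and 0.042).

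The peaks of the members under NRF fell at different times. A fitted cosine placed Serpina3g at 7.84 h (SE 0.61) in the light phase, Serpina3c at 16.3 h (SE 0.67) and Serpina3b at 17.1 h (SE 0.72) in the dark phase, and Serpina3m at 20.6 h (SE 0.60) late in the dark phase. The amplitudes on the log2 scale were 0.49 (SE 0.08) for Serpina3g, 0.34 (SE 0.06) for Serpina3c, 0.73 (SE 0.15) for Serpina3b and 0.79 (SE 0.13) for Serpina3m. Under DRF the fitted amplitudes were 0.04 (SE 0.09) for Serpina3g, 0.02 (SE 0.11) for Serpina3c, 0.34 (SE 0.09) for Serpina3b and 0.50 (SE 0.18) for Serpina3m. Differences in amplitude alone were not tested.

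**Figure D4:**
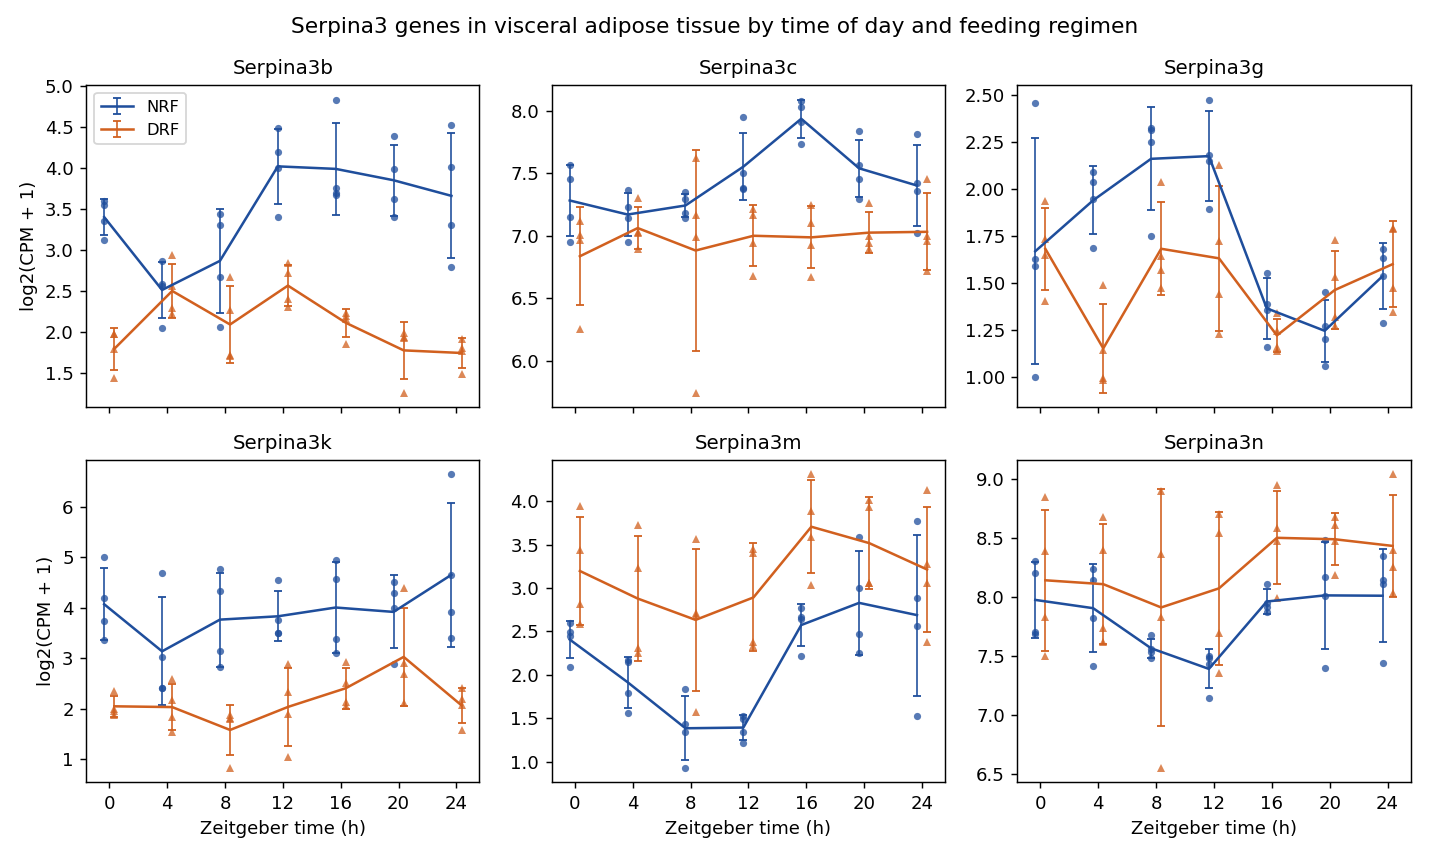
Level of the 6 members with a median of at least 50 reads at each zeitgeber time (log2(CPM + 1)), 1 point per mouse, with lines and bars for the mean and SD of 4 mice, NRF as blue circles and DRF as orange triangles. Serpina3b separates the regimens at ZT0 and from ZT12 to ZT24 and meets at ZT4, and the NRF mean of Serpina3g is above the DRF mean from ZT4 to ZT16.

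Serpina3b under NRF was low in the light phase and high in the dark phase. At ZT4 its 4 NRF mice had 6.26, 4.88, 5.01 and 3.13 CPM, and the 4 DRF mice 6.65, 3.66, 3.90 and 4.88 CPM, with overlapping groups (4.82 ± 1.28 against 4.77 ± 1.36 CPM, SD, n = 4 each). At ZT12 the NRF mice had 17.2, 21.4, 9.56 and 15.0 CPM and the DRF mice 3.95, 6.17, 4.28 and 5.56 CPM. Every NRF mouse was above every DRF mouse there. At ZT20 the NRF mice had 19.9, 14.8, 9.54 and 11.3 CPM and the DRF mice 2.80, 2.96, 2.82 and 1.395 CPM, a difference of -2.07 (SE 0.29, adjusted p = 1.88e-06, limma). The groups of Serpina3b did not overlap at ZT0, ZT12, ZT16, ZT20 and ZT24, and these were the 5 of 7 time points that passed, where 10.5%, 16.1%, 9.97%, 13.1% and 11.3% of all genes tested passed. At ZT8 the difference was -0.78 (adjusted p = 0.061).

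Serpina3c, whose mean was flat under DRF with group means of 116 to 133 CPM, rose under NRF to a maximum at ZT16. There the NRF mice had 239, 260.1, 269 and 212 CPM and the DRF mice 151, 136, 101 and 121 CPM. The groups did not overlap, and the difference was -0.95 (SE 0.22, adjusted p = 0.0030, limma), the only one of its 7 time points that passed, although the groups did not overlap at ZT12 and ZT20 either. Without mice numbered 3 it was -0.80 and did not pass (adjusted p = 0.053). At ZT4, the NRF minimum, the means were 144 ± 17.3 and 133 ± 16.4 CPM (SD, n = 4 each), with overlapping groups. Without DRF ZT8 replicate 1 and DRF ZT0 replicate 4, the difference in rhythm of Serpina3c passed (adjusted p = 0.00072 against 0.082 with them), as it did without either alone.

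Serpina3g differed between regimens at ZT4. There its NRF mice had 2.21, 3.09, 2.85 and 3.26 CPM and the DRF mice 0.987, 1.804, 0.975 and 1.204 CPM, with no overlap and a difference of -0.79 (SE 0.19, adjusted p = 0.0024, limma). At ZT0 the difference was 0.01 (adjusted p = 0.99), and at ZT8, where the groups overlapped, it was -0.48 and did not pass (adjusted p = 0.082). The ZT8 values were 4.01, 3.97, 2.37 and 3.75 CPM under NRF and 3.11, 1.77, 1.97 and 2.12 CPM under DRF. Only DRF ZT8 replicate 1, a library with genes of uterine epithelium, lay inside the NRF range. At ZT12 the NRF mice had 4.56, 3.53, 2.71 and 3.44 CPM and the DRF mice 1.34, 2.30, 1.72 and 3.36 CPM, which overlapped (adjusted p = 0.044). Leaving out any of 6 single libraries of those 8 ended that call (adjusted p up to 0.21), as did the scaling by total recovered reads and a pseudocount of 0.25. At ZT20 the order was the opposite, with means of 1.38 ± 0.27 CPM under NRF and 1.77 ± 0.41 CPM under DRF (SD, n = 4 each), and it did not pass (adjusted p = 0.56). Serpina3f, a neighbour of Serpina3g whose longest transcript was identical to it at 88.8% of 1782 aligned bases, had NRF values of 0.633, 0.281, 0.456 and 0.433 CPM at ZT12 and DRF values of 0.027, 0.069, 0.154 and 0.087 CPM. These groups did not overlap (adjusted p = 0.00073), and it was the only time point of Serpina3f that passed.

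Serpina3m had its lowest NRF values at ZT8 and ZT12. At ZT12 the NRF mice had 1.87, 1.82, 1.32 and 1.54 CPM and the DRF mice 4.20, 9.97, 9.60 and 4.02 CPM. The groups did not overlap, and the difference was 1.499 (SE 0.39, adjusted p = 0.0056, limma), which did not pass without mice numbered 2 (1.34, adjusted p = 0.083). At ZT8 the NRF mice had 2.56, 0.909, 1.70 and 1.54 CPM and the DRF mice 1.97, 5.57, 10.8 and 5.44 CPM, with DRF ZT8 replicate 1 inside the NRF range. That difference was 1.25 (adjusted p = 0.022), which leaving out either NRF ZT8 replicate 2 or DRF ZT8 replicate 3 raised to as much as 0.13. It was also lost without mice numbered 2 (0.17), 3 (0.12) or 4 (0.091). Without DRF ZT8 replicate 1 and DRF ZT0 replicate 4 it was 1.60 (adjusted p = 0.0032). At ZT20, the highest NRF mean, the NRF mice had 3.76, 11.1, 6.98 and 4.56 CPM and the DRF mice 7.31, 15.2, 14.3 and 7.34 CPM. These overlapped, and the difference of 0.69 did not pass (adjusted p = 0.29).

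Serpina3n was higher under DRF at all 7 time points, but none passed alone, and the groups overlapped at each. At ZT12 its NRF mice had 178, 141, 180.5 and 172 CPM and the DRF mice 206, 416, 372 and 163 CPM, with a difference of 0.68 (SE 0.32, adjusted p = 0.15, limma). The NRF mice lay close together there (168 ± 18.4 CPM, SD, n = 4), and the DRF mice were spread (289 ± 123 CPM). At ZT16 the DRF mice had 494, 384, 254 and 356 CPM and the NRF mice 234, 276, 246 and 241 CPM.

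Serpina3k was lower under DRF at all 7 time points and passed at 5 of them. At ZT0 the NRF mice had 31.1, 9.23, 17.2 and 12.3 CPM and the DRF mice 2.67, 4.14, 2.90 and 3.01 CPM, with no overlap and a difference of -2.02 (SE 0.53, adjusted p = 0.0092, limma). At ZT8 the NRF mice had 19.1, 6.07, 7.87 and 26.1 CPM and the DRF mice 0.789, 2.66, 2.54 and 2.48 CPM, a difference of -2.18 (adjusted p = 0.0027), which was -1.93 (adjusted p = 0.013) without DRF ZT8 replicate 1 and DRF ZT0 replicate 4. At ZT24 the NRF mice had 14.1, 24.1, 9.56 and 98.6 CPM, the last being the library with liver genes, and the highest of the 4 DRF mice had 4.296 CPM. That difference was -2.58 (adjusted p = 0.00080), and -1.92 (adjusted p = 0.014) without the library with liver genes. At ZT20 the groups overlapped, and the difference of -0.89 did not pass (adjusted p = 0.32). The calls at ZT0 and ZT8 were lost without mice numbered 1 (adjusted p = 0.081 and 0.056), and those at ZT12 and ZT16 each depended on single libraries. At ZT12 (adjusted p = 0.014) it was lost without NRF ZT12 replicate 1 or DRF ZT12 replicate 1, with an adjusted p of up to 0.085. The call at ZT12 was also lost without mice numbered 1 (difference of -1.22, adjusted p = 0.24, limma) or 2 (-1.77, adjusted p = 0.086). At ZT16 (adjusted p = 0.045) leaving out any of 5 libraries, NRF replicates 1 and 3 and DRF replicates 2, 3 and 4, ended it, with an adjusted p of up to 0.17. The call at ZT16 was also lost without mice numbered 1 (adjusted p = 0.14, limma), 2 (0.091) or 3 (difference of -1.16, adjusted p = 0.32). With the replicate number as a block it did not pass either (0.052).

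Across single time points, 16 of the 63 pairs of member and time point passed, from 6 members, where 13.8% of all such pairs passed (25144 pairs). Without DRF ZT8 replicate 1 and DRF ZT0 replicate 4, 21 member pairs passed (30791 over all genes). Without NRF ZT24 replicate 4, 18 did (24519 over all genes). Groups of 4 against 4 did not overlap in 19 of the 63 pairs, against 17.4% of all pairs. ZT12 held the most calls, 5 members, where 16.1% of all genes tested passed. ZT16 held 3 (9.97% of all genes), ZT0, ZT8 and ZT24 held 2 each (10.5%, 16.5% and 11.3%), and ZT4 and ZT20 held 1 each (19.5% and 13.1%).

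Across the libraries of a regimen, pairs of members varied in the same direction or in opposite ones. Over the 28 libraries of each regimen, and among 30 such relations, Serpina3m and Serpina3n had a Pearson r of 0.76 and a Spearman rho of 0.72 under NRF, and 0.92 and 0.94 under DRF. The permutation p of each was 1e-05, the smallest that 100000 permutations can give, and the adjusted values were 0.0001 for r and 0.00015 for rho. Without the 2 libraries farthest from the median of Serpina3m, r was 0.75 and 0.90. Serpina3c and Serpina3n had an r of 0.27 under NRF (rho 0.26, permutation p of 0.17 each, adjusted 0.30 and 0.32) and 0.79 under DRF (rho 0.68, permutation p of 1e-05 and 0.0001, adjusted 0.0001 and 0.00075), the latter 0.61 without DRF ZT8 replicate 1 and DRF ZT0 replicate 4. Serpina3b and Serpina3c had an r of 0.64 under NRF (rho 0.69, permutation p of 0.0003 and 0.0001, adjusted 0.0019 and 0.00075, r of 0.61 without the 2 farthest) and 0.06 under DRF (rho of -0.00, adjusted 0.78 and 0.99). Serpina3c and Serpina3m had an r of 0.61 under DRF (rho 0.52, permutation p of 0.00032 and 0.00555, adjusted 0.0019 and 0.028), which was 0.43 without DRF ZT8 replicate 1 and DRF ZT0 replicate 4. Under NRF the r of this pair was 0.27 (rho 0.37, permutation p of 0.17 and 0.053, adjusted 0.30 and 0.15), and 0.45 without NRF ZT24 replicate 4. The overlapping pair Serpina3k and Serpina3m had an r of 0.46 under NRF (rho 0.30, permutation p of 0.012 and 0.13, adjusted 0.046 and 0.27), which was 0.28 without NRF ZT24 replicate 4. Under DRF it was 0.56 (rho 0.49, permutation p of 0.0017 and 0.0082, adjusted 0.0074 and 0.035), and 0.46 without DRF ZT8 replicate 1 and DRF ZT0 replicate 4. Serpina3g and Serpina3m ran in opposite directions under NRF, with an r of -0.58 (rho of -0.66, permutation p of 0.0014 and 0.00026, adjusted 0.00695 and 0.0016) that was -0.63 without the 2 farthest libraries. Under DRF their r was -0.17 (adjusted 0.45). Time of day enters all of these, since each regimen holds 7 time points, and r within time points is not given here. Whether r differed between regimens was not tested.

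Over the 14 group means and 14103 other genes with a mean log2(CPM + 1) of at least 1, the genes most like Serpina3n were Cd164l2 (r of 0.96), Serpina3m (0.95), Prdx6 (0.91), Aga (0.91) and Prrg3 (0.91). Serpina3m was most like Serpina3n (0.95), Prdx6 (0.94) and Orm3 (0.94), the last an acute-phase glycoprotein gene. Among the genes most like Serpina3b were Magix (0.92) and Serpina3c (0.90), and Serpina3c was most like Pitpnc1 (0.93), Plau (0.91), which encodes the protease urokinase, and Jam2 (0.91). Serpina3k was most like AW112010 (0.94), Ifi203 (0.90), an interferon-induced gene, and Vtn (0.90), which encodes vitronectin. Serpina3g was most like Sv2a (0.95), Adgrf4 (0.92) and Vamp2 (0.92). These are descriptions over 14 points that share the regimen difference. For Serpina3k, these points include NRF ZT24, whose mean holds the library with liver genes at 98.6 CPM. The other mice of that group had 9.56 to 24.1 CPM. The r of Serpina3k without that library is not given here.

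Of 12 other genes of clade A measured, 2 fell and none rose, and both belong to the same cluster, Serpina3j (-0.28, SE 0.09, adjusted p = 0.022, limma) and Serpina3a (-0.21, SE 0.05, adjusted p = 0.0012). Serpina1a, which encodes an alpha-1-antitrypsin, differed by 0.41 (adjusted p = 0.068). Of 16 serpins of other clades, 2 rose and 3 fell, among them Serpinh1 (0.33, adjusted p = 0.0080), a collagen chaperone, and Serping1 (-0.29, adjusted p = 0.00022), the C1 inhibitor. The median difference was -0.01 over the clade A list and -0.11 over the other clades.

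Of 25 measured proteases, 4 rose and 9 fell, with a median difference of -0.17. Cfd, the adipocyte protease adipsin, went from a median of 12396 CPM under NRF to 4691 CPM under DRF (-1.37, SE 0.14, adjusted p = 3.20e-10, limma), and Prtn3, which encodes proteinase 3, from 5.79 to 3.00 CPM (-0.95, adjusted p = 1.06e-06). Ctsb, which encodes cathepsin B, rose by 0.16 (adjusted p = 0.025). Of 16 acute-phase genes, 4 rose and 3 fell, with a median of -0.05. Orm2 rose by 1.14 (SE 0.11, adjusted p = 2.04e-11), while Itih4 fell by 1.21 (adjusted p = 1.46e-11) and complement C3 fell by 0.55 (adjusted p = 0.00027). Hp, which encodes haptoglobin, differed by -0.40 (adjusted p = 0.080).

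Of 18 genes of the IL-6 and STAT3 pathway, none rose and 4 fell (median -0.03), including the receptor subunit gene Il6st (-0.26, SE 0.04, adjusted p = 6.85e-06, limma) and the feedback inhibitor gene Socs3 (-0.21, adjusted p = 0.030). Jak1 differed by 0.03 (adjusted p = 0.55). Of 14 genes of the glucocorticoid receptor and its targets, 3 rose and 1 fell (median 0.14). Hsd11b1, whose enzyme regenerates active glucocorticoid, rose by 1.59 (SE 0.11, adjusted p = 1.77e-16) and Cdkn1a by 1.42 (adjusted p = 1.46e-11), while the receptor gene Nr3c1 fell by 0.17 (adjusted p = 0.0090). Angptl4 differed by -0.04 (adjusted p = 0.90). Of 28 interferon-induced genes, none rose and 18 fell (median -0.24), among them Psmb8 (-0.61, SE 0.07, adjusted p = 9.96e-10), Psmb9 (-0.47, adjusted p = 5.98e-08) and Gbp2 (-0.13, adjusted p = 0.039), while the receptor gene Ifngr1 differed by 0.07 (adjusted p = 0.44). All these lists stand beside a share of 21.7% of all genes tested that passed.

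Beside the marker lists stands the same share, 21.7% of all genes tested called and 10.3% lower under DRF. Of macrophage markers, 3 of 5 fell and none rose, with a summed level of 652 to 1728 CPM under NRF and 570.2 to 1089 CPM under DRF. Of adipose progenitor markers, 3 of 5 fell (1661 to 3371 CPM against 1478 to 2515 CPM), and of T and NK lymphocyte markers 3 of 6 (3.56 to 8.09 CPM against 2.17 to 8.93 CPM). Of mesothelium markers, 2 of 4 fell (203 to 548 CPM against 172 to 511 CPM). No marker of B lymphocytes passed (4.73 to 26.0 CPM against 3.75 to 18.8 CPM), and 1 of 5 neutrophil markers rose, with sums of 0.848 to 4.67 CPM against 1.78 to 21.1 CPM. Of 8 adipocyte markers, 1 rose and 1 fell. Of 9 measured liver markers, none rose and 1 fell, Cyp2e1, which adipose tissue also expressed at 571 CPM or more in all of the 53 libraries other than the 3 that stood apart. Of 5 uterine epithelium markers, none rose and 1 fell. Cpa1, the pancreas acinar marker measured, was at 0 to 0.112 CPM. No measured gene of these lists was at 0 in all libraries. The part of these markers in the results on the Serpina3 genes was not tested.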

How the data were processed

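The authors sequenced polyadenylated RNA of VAT on a NovaSeq in paired reads of 150 bases, and the submitters' processing notes name HISAT2 2.0.5 and featureCounts 1.5.0-p3. The deposited score, named TPM by the authors, is log2(CPM + 1) divided by exon length and rescaled per library, as its values show. Whole reads were recovered from the steps between low values with GENCODE exon lengths of GRCm38, the assembly the notes call mm10. In genes that kept the annotated length, 99.9998% of 1216030 values lay within 0.02 of a whole number. Values above 10000 reads were not tested for this. Most genes kept that length only because their values lay near whole numbers, so the rule in part sets this share. The values themselves gave the length of 883 genes, and Scd1 was not resolved, which left 25938 genes.

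limma 3.58.1 (R 4.3.3) with an intensity trend was fitted on log2(CPM + 1) over all genes. A harmonic fit, in which each regimen has its own 24-h curve, gave mean levels and differences in rhythm, and a fit of 14 group means gave single time points. Fold changes are on that scale, where the pseudocount of 1 understates the change of low genes. Rhythm within a regimen was tested, after the MetaCycle approach, by joining the p-values of JTK_CYCLE and Lomb-Scargle with Fisher's method in Python 3.11.15. The limma p-values of differences in level were two-sided, while the F tests and the joined rhythm p-values have no direction. All of these were adjusted by Benjamini-Hochberg over all genes tested, with a threshold of 0.05. Those of the correlations between members were adjusted over the 30 relations. The recovery of reads, the limma fits and the test of rhythm within a regimen were tested on simulated data. The depth was 29.8 to 40.1 M recovered reads per library.

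Regimen, time and replicate came from the labels. The members and lists were chosen with earlier results of these data known, so their p-values describe the size of a difference against the spread between mice. All 9 members are named, as are the 2 most abundant genes of each pathway list and up to 2 with the largest called difference. Marker lists are given as counts. The 5 genes most like Serpina3n and the 3 most like each other member with a median of at least 50 reads are named, except 1 that is not reported here. Alternatives covered scaling by total recovered reads, a pseudocount of 0.25, a filter at a mean of 10 reads, other rhythm tests, the deposited values, the replicate number as a block, and leaving out libraries, replicate numbers or ZT24. Other tissues were not analysed here.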

Additional observations from a re-analysis of the deposited data

Results flagged for a closer look

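The daily pattern differed between DRF and NRF for Serpina3b (adjusted p = 0.00017, limma), Serpina3g (adjusted p = 0.0068) and Serpina3f (adjusted p = 0.027). Serpina3f had at most 25 reads in any library and lost the call without mice numbered 1, 2 or 3 and without any of 3 single libraries at ZT20, and Serpina3g lost it without mice numbered 2.

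In groups of 4 mice, 1 mouse stood far from the other 3 on the log2(CPM + 1) scale in 12 of 126 groups of a member. Chance gives about 1 in 20 for values without ties, a rate that does not hold for the low members, whose groups hold mice at 0 reads. Among members with more than a few reads, these were Serpina3b at 27.5 CPM in NRF ZT16 replicate 3 and at 1.395 CPM in DRF ZT20 replicate 4, Serpina3g at 2.37 CPM in NRF ZT8 replicate 3, and Serpina3k at 0.789 CPM in DRF ZT8 replicate 1. The last is a library with genes of uterine epithelium. Serpina3k in NRF ZT24 replicate 4, at 98.6 CPM in the library with liver genes, was not among them on that scale.

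The other 8 rest on single digits to 20 reads of a library, and in 4 of them the other 3 mice were all at 0 reads. They were Serpina3h at 0.162 CPM in DRF ZT16 replicate 2 and at 0.164 CPM in NRF ZT20 replicate 2, and Serpina3i at 0.0508 CPM in DRF ZT0 replicate 1, 0.0501 CPM in DRF ZT4 replicate 2, 0.123 CPM in DRF ZT8 replicate 2, 0.46 CPM in DRF ZT12 replicate 2, 0.232 CPM in DRF ZT16 replicate 1 and 0.352 CPM in NRF ZT20 replicate 2.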

How the results depend on the processing

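The mean differences of all 9 members kept their sign under each alternative run. Those of Serpina3b, Serpina3c, Serpina3k and Serpina3m also stayed past the threshold, Serpina3n lost it without mice numbered 2, and Serpina3f, Serpina3g and Serpina3i lost it without at least 1 replicate number, Serpina3i also without ZT24. Under DRF, the number of members with a 24-h rhythm rose from 0 to 2 with JTK_CYCLE alone (5039 genes in all, against 4254), and to 1 with scaling by total recovered reads (4286 genes), with the filter at 10 reads (4377), without DRF ZT8 replicate 1 and DRF ZT0 replicate 4 (5314), and with the limma F test without (6929) or with the replicate block (7185). Scaling by total recovered reads turned the split of calls in mean level from 2961 higher and 2662 lower to 2376 higher and 3273 lower.

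Leaving out single libraries or replicate numbers gave 5 to 8 members called for mean level (3814 to 6697 genes), 1 to 4 for the difference in rhythm (at least 7365 genes), 3 to 5 for the rhythm under NRF (4442 to 7413 genes) and 0 to 1 under DRF (2270 to 4724 genes). It also gave 13 to 20 pairs of member and time point (13421 to 28325 pairs of gene and time point over all genes). Replicate numbers name different mice. Same-numbered mice of a time point correlated in their deviations at -0.27 to 0.32 (median 0.02), over 0.1 in 7 of 28 pairs, and 5 of 28 NRF mice correlated best with their own number. With the replicate block, 8 members were called for mean level (5813 genes), 3 for the difference in rhythm (9546 genes) and 15 of 63 pairs of member and time point (26869 over all genes), with Serpina3k at ZT16 no longer called. At this depth, Serpina3h and Serpina3i lie near the limit of detection.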
